A study of Rattus norvegicus with 48 samples.

Results

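The comparison of livers that had both ischemic preconditioning and ischemic postconditioning (IPC+IPO) with livers that had postconditioning alone (IPO) asked what preconditioning added once postconditioning was in place. It was chosen by the sample labels: animals 31 to 40 of IPC+IPO against animals 21 to 30 of IPO, 20 of the 48 arrays of the series, across 14506 genes. Every animal was a male Wistar rat of 300 to 350 g, and 1 biopsy of the right liver lobe from each was measured on 1 Affymetrix array. All 20 rats had 30 min of total liver ischemia, then postconditioning, which is 3 cycles at the start of reperfusion, each with 30 sec of flow and then 30 sec of renewed ischemia, and 30 min of reperfusion before the biopsy. The IPC+IPO rats had, in addition, 10 min of liver ischemia and 10 min of reperfusion ahead of the main ischemia. The added ischemia, the added reperfusion and any longer time under anaesthesia cannot be told apart in this design, and no untreated liver is part of the comparison. The other groups are used here for context: 10 rats with ischemia and reperfusion only (IRI), 10 with preconditioning only (IPC) and 8 sham-operated rats without liver ischemia (Sham). The labels describe separate animals, and precision is limited by how many arrays a group has.

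Ischemic conditioning exposes an organ to short periods of blocked flow before or after a long one, and both forms are studied as a means to limit reperfusion injury of the liver. When flow returns, liver cells meet oxygen radicals, release and buffer metal ions, and switch on stress genes within minutes. Metallothioneins are small cysteine-rich proteins that bind zinc and copper and take up radicals, and their genes are driven by metals through the transcription factor MTF-1 and by glucocorticoids.

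No gene passed an adjusted p under 0.05 in IPC+IPO against IPO (0 of 14506, 0%; limma with Benjamini-Hochberg adjustment, smallest adjusted p = 0.229). The genes of smallest p were the metallothioneins Mt2A and Mt1, higher on average in IPC+IPO, and Tmprss2, Gar1 and Gsta3, lower on average. At an unadjusted p under 0.05 there were 482 genes, 3.32% of those tested, with 250 higher (1.72%) and 232 lower (1.6%) in IPC+IPO. These counts depended on single arrays and on the model: from 202 genes without IPC+IPO animal 38 to 694 without IPC+IPO animal 35, 765 when only these 2 groups entered the fit, 1270 with array weights, and 72 higher and 216 lower among the 9671 genes left after the dimmest 33.3% were set aside. With those weights, which let arrays of poor fit count less (0.097 for animal 38 and 0.248 for animal 37), 12 genes passed an adjusted p under 0.05. They were Mt2A, Mt1, H1f4 and Spry4, higher in IPC+IPO, and Gsta3, Tmprss2, Tubb2a, Wdr5b, Gar1, Trim32, Apol3l1 and Tprn, lower. In no gene did all arrays of 1 group lie above all arrays of the other (0%). Differences were small for most genes: their median was 0.0044 on the log2 scale, the 5th and 95th percentiles were -0.24 and 0.19, and 37 genes differed over 1.5-fold, 15 of them higher and 22 lower. Among the 9671 genes left without the dimmest 33.3% the median was -0.048. Of all genes 7428 were higher and 7078 lower on average. This split is the background for the list counts below, but it includes the dimmest genes. The brighter genes leaned lower as a whole, so lists of bright genes that lean lower are not set apart by those counts alone. The 7 genes that differed over 2-fold were Ubd, Mt2A, Upp2, Dbp, Mt1 and Sds, higher in IPC+IPO, and Hebp2, lower. The 95% interval of the difference lay within 1.5-fold in either direction for 13369 genes (92.2%) and within 2-fold for 14418 genes (99.4%). The 13905 probe sets with no or several gene symbols gave 409 with an unadjusted p under 0.05 (2.94%), and none was called.

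**Figure D1:**
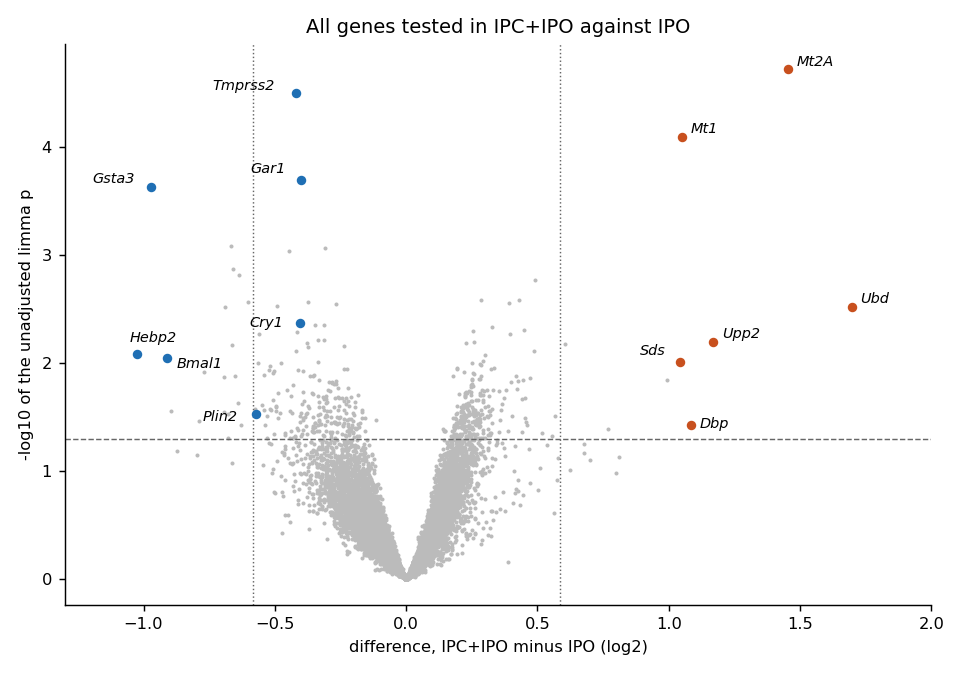
Each of the 14506 genes by its difference, IPC+IPO minus IPO (log2, x axis), and the negative log10 of its unadjusted limma p (y axis); dashed line, p of 0.05; dotted lines, 1.5-fold. Mt2A (1.45) and Mt1 (1.05) stand at the upper right and Tmprss2 (-0.42) at the upper left, and none of the genes passed the adjusted threshold.

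Arrays were not alike in the scatter of their values. The standard deviation of log2 values over all genes of an array, here called its spread, ran from 1.75 to 1.96 in IPO (median 1.93) and from 1.5 to 1.97 in IPC+IPO (median 1.92). Over 10 arrays each, mean spread was 1.908 ± 0.065 (SD) for IPO against 1.857 ± 0.153 (SD) for IPC+IPO, a difference of -0.051 (two-sided permutation p = 0.376). The IPC+IPO arrays of lowest spread were animals 38 (1.5) and 37 (1.67), and without these 2 the group mean was 1.925. By construction, an array of low spread reads bright genes lower and dim genes higher, so 2 further fits are given beside the results: with spread as a covariate, and without the 13 arrays of low spread. Low spread here means below the lowest IPO array (animal 30, 1.75), so no IPO array was left out. The 13 are IPC+IPO animals 37 and 38, IRI animals 7 to 10, IPC animal 12 and Sham animals 41, 42 and 44 to 47. List medians carry the value of one or both fits, and a gene whose difference is given carries the value without arrays of low spread where that fit moved it by over 1.5 times. Albumin (Alb), the main plasma protein made by hepatocytes, read 13.29 to 13.38 in IPO (median 13.31) and 12.81 to 13.35 in IPC+IPO (median 13.31) and was near the top of the scale in both groups. The labels name no day of surgery, hybridization batch or time of day.

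Mt2A and Mt1 lie side by side on rat chromosome 19. The promoters of both are shown because these genes had the largest differences relative to their error among the genes higher in IPC+IPO. The sequences are from RefSeq (build GRCr8) and run 5′ to 3′ over the 250 bases before each gene's start, Mt1 at chr19:10832976-10833225 and Mt2A at chr19:10838709-10838958, both on the minus strand. Capitals mark matches on either strand to TGCNCNC, the core of the metal response element that MTF-1 is known to bind.
Mt1: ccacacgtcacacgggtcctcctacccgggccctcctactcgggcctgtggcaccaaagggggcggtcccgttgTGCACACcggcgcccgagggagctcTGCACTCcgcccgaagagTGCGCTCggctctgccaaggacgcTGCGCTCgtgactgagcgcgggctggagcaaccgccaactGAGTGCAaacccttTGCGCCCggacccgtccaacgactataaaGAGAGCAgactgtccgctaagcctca
Mt2A: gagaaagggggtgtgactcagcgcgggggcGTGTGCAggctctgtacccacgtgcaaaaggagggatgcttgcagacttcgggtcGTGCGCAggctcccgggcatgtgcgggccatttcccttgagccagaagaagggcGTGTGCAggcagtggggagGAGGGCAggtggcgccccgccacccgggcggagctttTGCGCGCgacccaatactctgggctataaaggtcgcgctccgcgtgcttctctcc
There were 7 matches before the start of Mt1, the farthest beginning 176 and the nearest 26 bases ahead of it, and 5 before the start of Mt2A, between 220 and 55 bases ahead. The motif is short, and 49.6% of the 33469 promoters in the table held at least 1 match in their 300 bases. At least 5 matches were found in 0.669% of promoters and at least 7 in 0.108%. Of the 12 promoters on the list for metallothioneins and zinc handling, 8 held a match, among them Mt3 with 5, Mtf1 and Slc30a2 with 4 each and Slc30a1 with 2. A match is a description of the sequence and shows no binding.

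Mt2A (probe set 10809399) ranged from 9.71 to 11.37 on the log2 scale in IPO, with a median of 10.5, and from 10.52 to 12.89 in IPC+IPO, with a median of 11.88. The groups overlapped through IPC+IPO animals 31 and 34, while the other 8 IPC+IPO arrays lay above every IPO array. The fitted difference was 1.45 ± 0.31 (SE; 95% interval 0.84 to 2.07), or 2.74-fold, with limma p = 1.9e-05 and adjusted p = 0.229. Mt1 (probe set 10796411) ranged from 10.35 to 11.87 in IPO (median 11.31) and from 10.91 to 13.07 in IPC+IPO (median 12.24). Its difference was 1.05 ± 0.24 (SE; 95% interval 0.56 to 1.54; limma p = 7.96e-05, adjusted p = 0.385), and again 8 of 10 IPC+IPO arrays lay above every IPO array, with animals 31 and 34 the lowest. Each gene has a second probe set, which differed by 1.74 ± 0.36 for Mt2A and 1.06 ± 0.25 for Mt1 (SE). Leaving out IPC+IPO animal 34 gave 1.61 for Mt2A (adjusted p = 0.0393) and 1.2 for Mt1 (adjusted p = 0.0405), the only genes called when any 1 of the 20 arrays was left out. The metallothionein genes are closely related in sequence, and whether the probes of one also read the other was not tested.

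The pair moved together from animal to animal. Across the 10 IPO arrays Mt1 and Mt2A correlated with Pearson r = 0.95 and Spearman rho = 0.96, and across the 10 IPC+IPO arrays with r = 0.97 and rho = 0.92. Permutation p values adjusted over the 8 of this family were 0.00032 for both in IPO and 0.000427 for r and 0.00128 for rho in IPC+IPO. Without the 2 arrays farthest from the median the r values were 0.93 and 0.94. The correlation of Mt2A with array spread did not pass the same tests: r was -0.16 in IPO (rho -0.1) and 0.1 in IPC+IPO (rho 0.38), with adjusted permutation p of 0.785 for both r values, 0.785 for rho in IPO and 0.444 for rho in IPC+IPO. Without the 2 arrays of most extreme spread these r values were 0.13 and 0.61. With spread as a covariate the difference was 1.53 for Mt2A and 1.12 for Mt1, and without the arrays of low spread it was 1.45 and 1.09.

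Of the 5 groups, IPO had the lowest mean of both metallothioneins. Mean Mt2A was 10.47 ± 0.63 (SD, n = 10) in IPO and 11.93 ± 0.78 (n = 10) in IPC+IPO, beside 11.99 ± 0.36 in IRI, 11.79 ± 0.88 in IPC and 11.04 ± 0.89 in Sham (n = 8). Mean Mt1 was 11.21 ± 0.54 in IPO and 12.26 ± 0.68 in IPC+IPO, beside 12.43 ± 0.33 in IRI, 12.34 ± 0.59 in IPC and 11.52 ± 0.68 in Sham. In the fit against IRI, Mt2A differed by -1.52 ± 0.31 (SE; adjusted p = 0.00819) in IPO and by -0.06 ± 0.31 (adjusted p = 0.91) in IPC+IPO, 2 comparisons that share the IRI arrays. Preconditioning without postconditioning, IPC minus IRI, gave -0.2 ± 0.31 for Mt2A and -0.09 for Mt1.

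**Figure D2:**
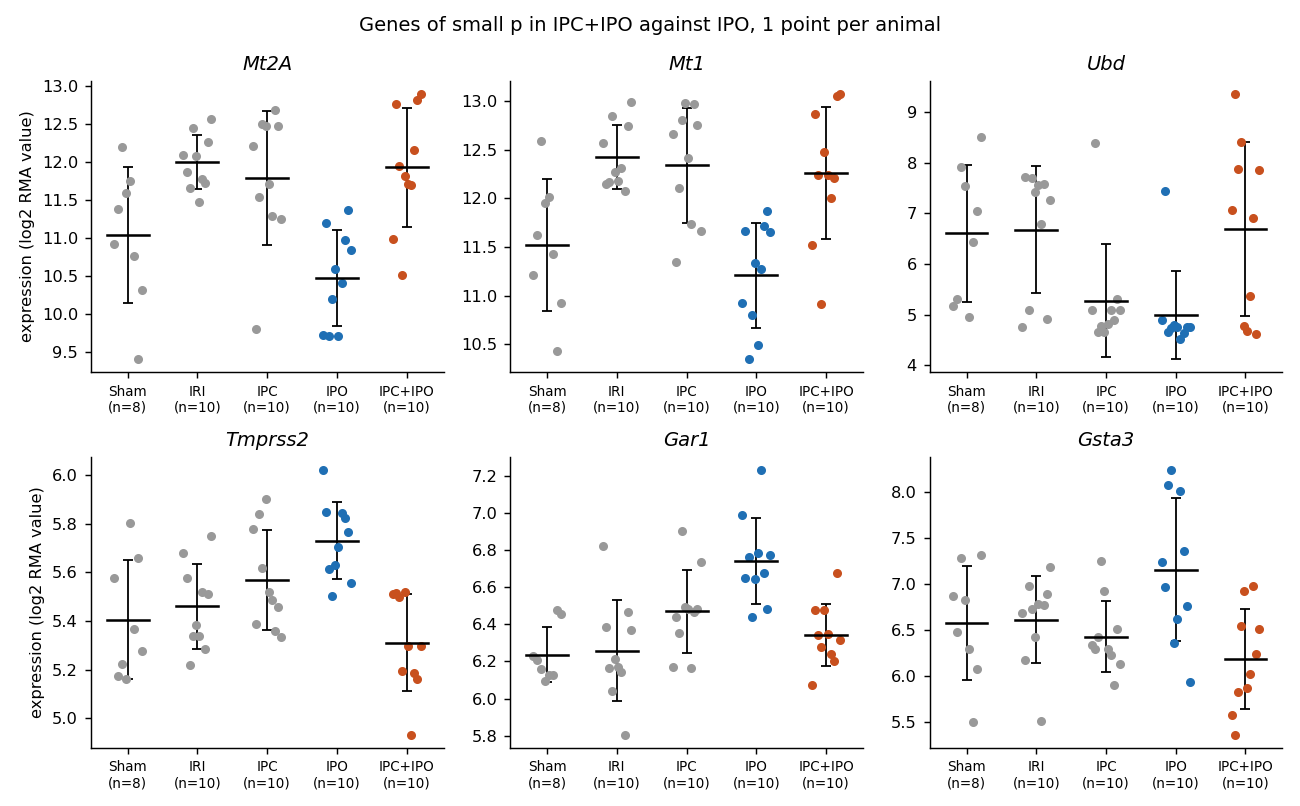
Log2 RMA values of 6 genes in every animal (points), by group, with the group mean (horizontal bar) and SD (whiskers); IPO in blue, IPC+IPO in orange, the other groups in grey. For Mt2A and Mt1, 8 of 10 IPC+IPO animals lie above all IPO animals; for Tmprss2 and Gar1, 7 of 10 lie below all IPO animals.

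The other genes of zinc handling had smaller differences. Of the 16 genes measured on that list 7 were higher and 9 lower. Their median difference was -0.049 (0.025 with spread as a covariate) beside 0.004 over all genes (0.01 with the covariate). At an unadjusted p under 0.05, 3 were higher, Mt2A and Mt1 among them, and 1 lower, beside 1.72% and 1.6% of all genes. Mtf1, the metal sensor itself, differed by 0.02 ± 0.1 (SE; 95% interval -0.19 to 0.22; 0.04 without the arrays of low spread), and Slc30a1, the zinc exporter it is known to control, by -0.03 ± 0.12 (-0.28 to 0.22; 0.05 without those arrays). Mt3, a metallothionein best known from brain, read 4.92 to 5.4 in IPO and 4.9 to 6.23 in IPC+IPO, low on the scale, and differed by 0.22 ± 0.11 (0.08 without the arrays of low spread). Slc30a2, a transporter that loads zinc into vesicles, read 5.1 to 5.58 in IPO and 5.23 to 5.95 in IPC+IPO and differed by 0.2 ± 0.08 (adjusted p = 0.938; 0.13 without the arrays of low spread). Slc39a4, a zinc importer, differed the other way by -0.49 ± 0.2, or -0.32 with spread as a covariate and -0.26 without the arrays of low spread.

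Of the 20 genes of smallest p, 14 were lower on average in IPC+IPO. Tmprss2, a serine protease of the cell surface, ranged from 5.5 to 6.02 in IPO (median 5.73) and from 4.93 to 5.52 in IPC+IPO (median 5.3). All 10 IPC+IPO arrays were below the IPO median and 7 below every IPO array. The difference was -0.42 ± 0.09 (SE; 95% interval -0.6 to -0.24; limma p = 3.15e-05, adjusted p = 0.229). Both Tmprss2 medians were below the median of all genes on every array of the groups compared. Gar1, a core protein of the particles that guide pseudouridine formation in ribosomal RNA, ranged from 6.44 to 7.23 in IPO (median 6.72) and from 6.08 to 6.68 in IPC+IPO (median 6.33). Here too 7 IPC+IPO arrays lay below every IPO array, and the difference was -0.4 ± 0.1 (adjusted p = 0.677). Gsta3, a glutathione transferase that detoxifies reactive compounds, ranged from 5.93 to 8.24 in IPO (median 7.11) and from 5.36 to 6.98 in IPC+IPO (median 6.13). It differed by -0.97 ± 0.24 (adjusted p = 0.677), with wide scatter in both groups and 4 IPC+IPO arrays below all of IPO.

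The remaining genes of this set had an adjusted p of 0.938 each. Cep97, a centrosome protein, had 8 IPC+IPO arrays below every IPO array, at a small difference of -0.31 ± 0.09. It read low on the scale, 4.23 to 4.51 in IPO and 3.77 to 4.31 in IPC+IPO. Apol3l1 and Apol9a, members of the apolipoprotein L family, differed by -0.67 ± 0.19 and -0.6 ± 0.19. Etv6, a repressor of the ETS family, differed by -0.66 ± 0.19 and Tubb2a, a beta-tubulin, by -0.64 ± 0.19. Rabif, a chaperone of Rab GTPases, differed by -0.45 ± 0.13, by -0.3 without the arrays of low spread, and by -0.23 ± 0.17 on its second probe set. Grk5, a kinase that desensitises G protein-coupled receptors, differed by -0.37 ± 0.12, Nle1, a ribosome assembly factor, by -0.27 ± 0.08, and the transporter gene Flvcr2 by -0.49 ± 0.16. Abcg3, an ABC transporter gene, differed by -0.69 ± 0.22 with its lowest value in animal 38, and by -0.39 without the arrays of low spread. Higher on average were the linker histone gene H1f4 (0.49 ± 0.15), Rnf186, which encodes a ubiquitin ligase (0.43 ± 0.13), and Spry4, an inhibitor of growth factor signalling to ERK (0.39 ± 0.12), for which all 10 IPC+IPO arrays were above the IPO median.

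Ubd encodes FAT10, a ubiquitin-like modifier that inflammatory cytokines are known to induce, and it had the largest difference of all genes. In IPO 9 animals read between 4.52 and 4.9 and animal 22 read 7.45. In IPC+IPO values ran from 4.63 to 9.35 with a median of 6.99, and they fell into low and high animals: 31 to 34, 38 and 40 were at 6.92 or above, and 35, 36, 37 and 39 at 5.37 or below. The difference was 1.7 ± 0.54 (SE; 95% interval 0.6 to 2.79; p = 0.003, adjusted p = 0.938), and IPC minus IRI was -1.4. Low and high animals were seen in IRI (4.75 to 7.71, median 7.34) and Sham (4.96 to 8.5, median 6.74) too. IPC was mostly low, with a median of 4.99 and its highest value, 8.38, in animal 12.

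Genes of the circadian clock formed the other group with large differences in average, at wide intervals. In liver the clock runs on the activators Bmal1, Clock and Npas2, their repressors of the Per and Cry families, and the nuclear receptors Nr1d1 and Nr1d2, which repress Bmal1; Dbp and Tef carry the rhythm to metabolic genes. Of 14 core clock genes measured, 8 were higher and 6 lower in IPC+IPO, with a median difference of 0.092 (0.119 with spread as a covariate). At an unadjusted p under 0.05, 2 were higher and 4 lower, beside 1.72% and 1.6% of all genes. The 4 were activators and Cry1. Bmal1 differed by -0.91 ± 0.33 (95% interval -1.58 to -0.24), Clock by -0.57 ± 0.25, Npas2 by -0.52 ± 0.2 and Cry1 by -0.4 ± 0.13. Without the arrays of low spread Clock was at -0.33 and Npas2 at -0.34. The 2 higher were Nr1d1 at 0.77 ± 0.36 and Nr1d2 at 0.56 ± 0.27. Per1, Per2 and Per3 differed by 0.34 ± 0.24, 0.18 ± 0.14 and 0.42 ± 0.27, and Cry2 by -0.02 ± 0.16 (0.13 without the arrays of low spread), all with intervals that include 0.

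Of 17 clock output genes 13 were higher, beside 7428 of all 14506 genes. At an unadjusted p under 0.05, 4 were higher and none lower, beside 1.72% and 1.6% of all genes. The median difference of 0.288 was the highest of all lists (0.326 with spread as a covariate). The 4 were Dbp (1.08 ± 0.51), Tef (0.43 ± 0.17), Usp2, a deubiquitinase with a strong daily rhythm (0.57 ± 0.26), and Upp2, a uridine phosphorylase of liver (1.17 ± 0.41). Nfil3, which competes with Dbp for the same sites, differed by -0.22 ± 0.24 (-0.08 without the arrays of low spread). No clock gene passed the adjusted threshold (adjusted p = 0.938 for Bmal1, Cry1, Dbp and Upp2). The lists were chosen with earlier results of these data known, and the labels give no time of day.

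These averages came from some animals more than others. Bmal1 ranged from 6.34 to 7.64 in IPO (median 7.44) and from 4.42 to 7.51 in IPC+IPO (median 6.29). IPC+IPO animals 31, 32, 33 and 35 sat between 7.42 and 7.51, inside the IPO range, while animals 39 and 40 read 4.42 and 4.93. Dbp ranged from 6.16 to 8.43 in IPO (median 6.36) and from 6.25 to 10.22 in IPC+IPO (median 7.07). Animals 39 and 40 were again at the far end, at 10.1 and 10.22, with animal 36 at 9.28. In IPO, animal 30 had the highest Dbp (8.43) and the lowest Bmal1 (6.34). Within each group with ischemia, Bmal1 tended to be lower and Dbp higher at higher animal numbers. From first to last animal, Bmal1 went from 7.47 to 5.36 in IRI and from 7.05 to 6.31 in IPC. It went from 7.47 to 6.34 in IPO and from 7.42 to 4.93 in IPC+IPO, but from 5.76 to 7.08 in Sham. The labels do not say what the numbering stands for, and its part in the group difference was not tested. The spread between animals was wide in IRI too, where Bmal1 averaged 5.98 ± 0.76 and Dbp 8.38 ± 1.31 (SD, n = 10). Sham livers had 5.79 ± 0.58 and 8.22 ± 1, and IPO livers 7.26 ± 0.41 and 6.69 ± 0.73.

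**Figure D3:**
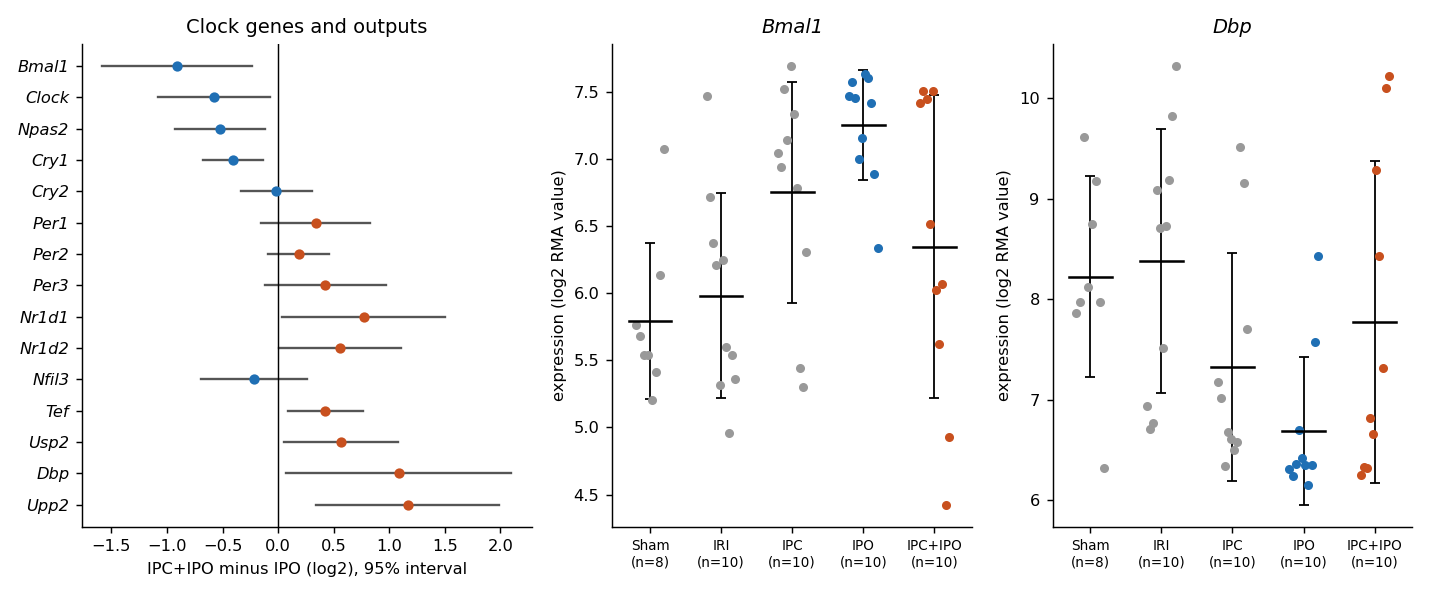
Left, difference IPC+IPO minus IPO (log2) of 15 clock and clock output genes with the 95% interval; orange, higher, and blue, lower in IPC+IPO. Middle and right, log2 RMA values of Bmal1 and Dbp in every animal by group, with mean (bar) and SD (whiskers): IPC+IPO animals reach from the IPO range to 4.42 for Bmal1 and to 10.22 for Dbp.

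Promoter windows of these genes were searched for the E-box CACGTG and the D-box TTANNTAA on both strands. The E-box was in 2 of 12 core clock promoters and 1 of 13 output promoters, beside 6.42% of all promoters, and the D-box in 1 of 12 and 0 of 13, beside 5.84%. The windows hold only the 250 bases before and 50 after a start, so sites farther away were not searched.

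The immediate-early, MAPK feedback and glucocorticoid-induced lists had medians above 0, and the glucocorticoid-induced list held some of the largest differences of single genes. The immediate-early genes, which respond to reperfusion within minutes, were higher in 25 of 38 cases with a median of 0.071 (0.126 with spread as a covariate), and 1 was at an unadjusted p under 0.05: Fosl1, an AP-1 subunit, at 0.26 ± 0.12 (0.17 with spread as a covariate and 0.11 without the arrays of low spread). The MAPK feedback list had 13 of 17 higher and a median of 0.056 (0.128 with the covariate), with Spry4 alone at that p. Of 20 glucocorticoid-induced genes 14 were higher, with a median of 0.114 (0.195 with the covariate). At an unadjusted p under 0.05, 4 were higher, beside 1.72% of all genes: Mt2A, Sds, Klf9 and Lcn2. Mt2A is counted on the zinc handling list too. Sds, a serine-degrading enzyme induced in fasting, ranged from 6.28 to 8.41 in IPO (median 7.38) and from 6.88 to 10.07 in IPC+IPO (median 8.36). The difference of Sds was 1.04 ± 0.39, with the highest values in IPC+IPO animals 40 (10.07) and 39 (9.8). Klf9, a transcription factor gene, differed by 0.52 ± 0.25 and Lcn2, an iron-binding acute phase protein gene, by 0.31 ± 0.15. Igfbp1, a fasting-induced binding protein of insulin-like growth factors, differed by 0.68 ± 0.36.

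Most protein-folding genes were lower on average, and their list medians were nearer 0 in both fits that took array spread into account. Of 23 cytosolic heat shock chaperones and regulators 21 were lower, with a median of -0.166 (-0.089 with spread as a covariate and -0.054 without the arrays of low spread), and 2 were at an unadjusted p under 0.05: Dnajb1, a co-chaperone of HSP70, at -0.54 ± 0.25, and Hsf1, the factor that drives the heat shock response, at -0.22 ± 0.1 (-0.14 without those arrays). Hsph1, a nucleotide exchange factor of HSP70, differed by -0.29 ± 0.14 (-0.18 without them). Of 9 mitochondrial chaperones 7 were lower (median -0.175, -0.052 with the covariate and 0.001 without those arrays), led by Clpx, an unfoldase, at -0.48 ± 0.21, and with Hspd1, the mitochondrial HSP60, at -0.27 ± 0.19 (-0.09 without those arrays). Of 19 genes of the endoplasmic reticulum stress response 16 were lower (median -0.102, -0.026 with the covariate and -0.014 without those arrays), with Hspa5, its main chaperone, at -0.28 ± 0.15 (-0.17 without those arrays). The heat shock core GAANNTTC was found in 12 of 19 cytosolic chaperone promoters (63.2%) and 3 of 7 mitochondrial ones, beside 8.59% of all promoters.

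Genes of ribosome assembly gave the lowest list median. Of 21 measured genes 20 were lower, with a median of -0.214 (-0.113 with spread as a covariate and -0.093 without the arrays of low spread). The 3 at an unadjusted p under 0.05 were Gar1, Nop58, a core protein of the particles that methylate ribosomal RNA, at -0.56 ± 0.21, and Tsr1, a factor of small subunit maturation, at -0.39 ± 0.17. Without the arrays of low spread Nop58 was at -0.33 and Tsr1 at -0.18. The 69 cytosolic ribosomal protein genes split evenly, 32 higher and 37 lower, with a median of -0.005 (0.018 with spread as a covariate). All 30 proteasome genes were lower by a little (median -0.105, Psmd11 the lowest at -0.24 ± 0.17, or -0.04 without the arrays of low spread), none at an unadjusted p under 0.05, and the median was -0.002 with spread as a covariate and 0.038 without the arrays of low spread.

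Metabolic lists leaned to lower values as well. Of 30 cholesterol and fatty acid synthesis genes 28 were lower (median -0.187, or -0.127 with spread as a covariate), and 2 were at an unadjusted p under 0.05: Fasn, the fatty acid synthase, at -0.63 ± 0.29, and Gpam, which starts triglyceride synthesis, at -0.43 ± 0.21. Without the arrays of low spread Fasn differed by -0.25, Gpam by -0.25 and the list median was -0.015. Scd, the stearoyl-CoA desaturase, differed by -0.66 ± 0.38. Fatty acid oxidation genes were evenly split (12 higher, 12 lower, median 0.098 with the covariate), with Plin2, a lipid droplet coat protein, at -0.57 ± 0.25 (-0.37 without the arrays of low spread) and Cpt1a, which brings fatty acids into mitochondria, at 0.54 ± 0.28. Of 22 genes of gluconeogenesis, glycogen and insulin response 17 were lower (median -0.099, or 0.007 with spread as a covariate), and Gckr, the inhibitor of glucokinase, differed by -0.42 ± 0.15 (-0.23 without the arrays of low spread). Cth, which makes cysteine and hydrogen sulfide, differed by -0.5 ± 0.19, and by -0.26 without the arrays of low spread. Slc6a6, the taurine transporter, differed by -0.9 ± 0.4 (-0.58 without those arrays) and Slc1a2, a glutamate transporter, by 0.44 ± 0.19. Within IPC+IPO, Slc6a6 read 9.29 in animal 31, 5.91 in animal 37 and 6.36 in animals 39 and 40. Animals 39 and 40 were also at the far end for Bmal1 and Dbp. Hsd17b2, which inactivates sex steroids, ranged from 8.55 to 11.15 in IPO and 8.65 to 12.28 in IPC+IPO and differed by 0.99 ± 0.39. Its lowest IPC+IPO value was in animal 31 and its highest in animals 39 and 40. The part of animal number in these differences was not tested. Cyp1a1, a target of the aryl hydrocarbon receptor, differed by 0.6 ± 0.21 and read low on the scale, with medians of 4.11 in IPO and 4.8 in IPC+IPO. Hebp2, a heme-binding protein gene, differed by -1.02 ± 0.37, the lowest of all genes, with medians of 6.98 in IPO and 5.44 in IPC+IPO.

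Of 29 oxidative stress and glutathione genes 23 were lower (median -0.09, or 0.001 without the arrays of low spread), with Osgin1, a target of NRF2, at -0.64 ± 0.27 and -0.34 without the arrays of low spread. The hypoxia-inducible list was balanced (15 higher, 14 lower, median 0.002, or 0.031 with spread as a covariate), with Hk2 and Pfkfb3, which promote glycolysis, at 0.21 ± 0.1 and 0.31 ± 0.15. Adenosine signals through receptors that have been linked to conditioning: Adora2b differed by -0.66 ± 0.23 and Adora2a by 0.24 ± 0.12. Adora2b ranged from 5.18 to 7.19 in IPO (median 6.18) and from 4.81 to 6.29 in IPC+IPO (median 5.54), so the groups overlapped widely.

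Among immune lists, interferon-stimulated genes had the median farthest from 0 as deposited. Cytokines, chemokines and adhesion molecules had 22 of 38 higher, a median of 0.022 (0.038 with spread as a covariate) and no gene at an unadjusted p under 0.05; Socs2, a feedback inhibitor of growth hormone signalling, differed by -0.8 ± 0.43, or -0.3 without the arrays of low spread. Of 33 interferon-stimulated genes 25 were lower (median -0.138, or -0.04 with spread as a covariate and 0.007 without the arrays of low spread), with Irgm and Igtp, immunity-related GTPases, at -0.65 ± 0.25 and -0.23 ± 0.11 (-0.39 and -0.12 without those arrays), and Ubd higher. Acute phase genes were lower in 18 of 23 cases (median -0.072, -0.025 with the covariate and -0.013 without those arrays). Of 27 cell death genes 19 were lower (median -0.035, or 0.008 without the arrays of low spread), and Bcl2l11, the pro-apoptotic BIM, differed by 0.25 ± 0.11. Among 24 growth and regeneration genes 14 were lower (median -0.025, or 0.026 with spread as a covariate) and none was at an unadjusted p under 0.05, with Egfr, the epidermal growth factor receptor, at -0.43 ± 0.26 (-0.18 without the arrays of low spread).

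Over all 36 lists, 49 of 802 distinct genes were at an unadjusted p under 0.05 (6.11%), beside 3.32% of all genes tested, and none passed the adjusted threshold. Because lists and members were chosen with earlier results of these data known, the higher share is no test of the lists. List medians ran from -0.214 to 0.288. They lay below 0 in 20 lists as deposited and in 13 with spread as a covariate, which moved a median by up to 0.123.

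**Figure D4:**
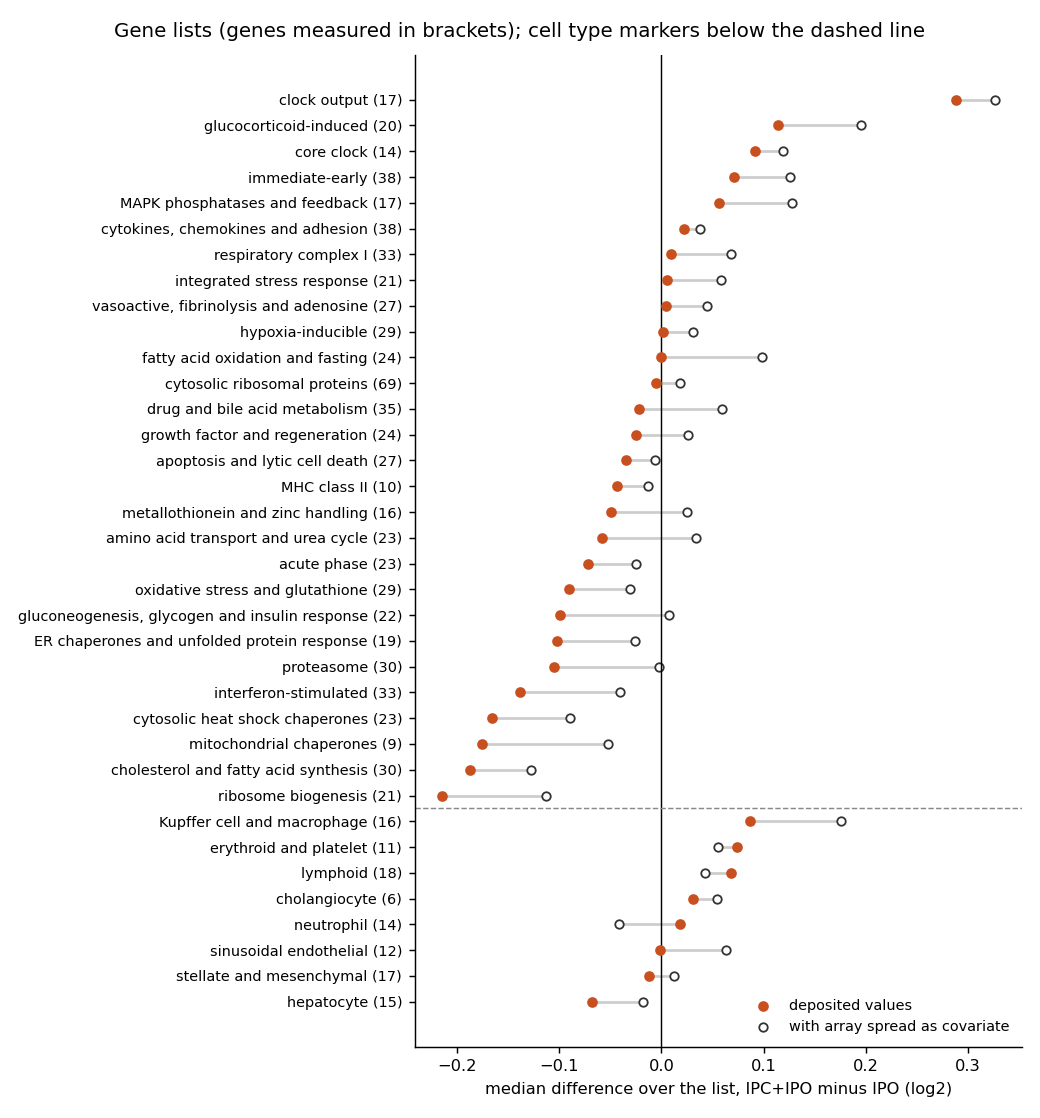
Median difference IPC+IPO minus IPO (log2, x axis) of each gene list, as deposited (filled) and with array spread as a covariate (open), with the number of genes measured; 28 pathway lists above and 8 cell type marker lists below the dashed line. Clock output stands highest at 0.288 and ribosome biogenesis lowest at -0.214.

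Medians of the lists of markers of cell types that a liver biopsy can hold ran from -0.068 to 0.087, and the highest, for Kupffer cells, was 0.176 with spread as a covariate. Of 15 hepatocyte markers 14 were lower (median -0.068, or -0.018 with spread as a covariate), with Hnf4a, a master regulator of hepatocytes, at -0.29 ± 0.2 (-0.09 without the arrays of low spread). Of 16 Kupffer cell and macrophage markers 12 were higher (median 0.087, 0.176 with the covariate and 0.163 without the arrays of low spread). Vsig4, a complement receptor of resident macrophages, differed by 0.21 ± 0.23 (0.39 with the covariate and 0.4 without those arrays). IPO animal 30 read 5.9 for Vsig4, below the next lowest IPO value of 7.33, and both of those fits kept this array. Of 18 lymphoid markers 17 were higher by a small amount (median 0.068, or 0.043 with the covariate), 2 of them at an unadjusted p under 0.05: the T cell receptor subunits Cd3d (0.25 ± 0.11) and Cd3g (0.32 ± 0.14). Of 14 neutrophil markers 9 were higher and 5 lower (median 0.018, or -0.041 with spread as a covariate). S100a8 was the lowest of them at -0.142, and the chemoattractant receptors Cxcr2 and Fpr1 differed by 0.28 ± 0.11 and 0.3 ± 0.13. Cd3g, Cxcr2 and Fpr1 each read low on the scale, and each had its highest value in animal 38, the array of lowest spread. Without the arrays of low spread they were at 0.18, 0.17 and 0.11. Of 6 cholangiocyte markers 4 were higher and 2 lower (median 0.031, or 0.054 with spread as a covariate). Spp1 was the highest of them at 0.22 ± 0.08 and Krt19 the lowest at -0.153. The summed level of a list, as log2, overlapped between the groups: 16.04 to 16.21 in IPO and 15.63 to 16.21 in IPC+IPO for hepatocyte markers, 11.14 to 12.5 and 11.53 to 12.57 for Kupffer cell markers, and 9.01 to 9.63 and 8.92 to 9.91 for neutrophil markers. In bulk tissue, fewer cells of a type and less RNA per cell cannot be told apart.

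Whether preconditioning made a different difference with and without postconditioning was tested as an interaction, (IPC+IPO minus IPO) minus (IPC minus IRI). No gene passed the adjusted threshold (0 of 14506, 0%; limma, smallest adjusted p = 0.166), while 2942 genes, 20.3%, had an unadjusted p under 0.05. With array weights 189 genes were called, and in the other settings tried none was. As deposited, Plin2 had the smallest p, with IPC+IPO minus IPO at -0.57 and IPC minus IRI at 1.18, an interaction of -1.75 (limma p = 1.19e-05). Without the arrays of low spread its IPC+IPO minus IPO was -0.37. For Mt2A the interaction was 1.65 ± 0.43 (p = 0.000386, adjusted p = 0.181), for Ubd 3.1 (p = 0.000192) and for Bmal1 -1.68 (p = 0.000849). Of the clock genes, IPC minus IRI as deposited was 0.77 for Bmal1, 0.54 for Clock, 0.38 for Cry1 and -0.8 for Upp2. Each was opposite in sign to IPC+IPO minus IPO, while Per1 was higher in both (0.08 and 0.34). IRI animals 7 to 10 and IPC animal 12 are among the arrays of low spread. Interactions and IPC minus IRI of single genes are given only as deposited. The list medians of IPC minus IRI were 0.085 for core clock and 0.233 for clock output, of the same sign as those of IPC+IPO minus IPO. Across the 14506 genes the 2 differences, which share no arrays, correlated with Pearson r = -0.52 and Spearman rho = -0.56; genes are not independent replicates, and this is a description. With array spread as a covariate r was -0.08 and rho -0.05, and without the 13 arrays of low spread 0.12 and 0.14. The number of genes at an unadjusted p under 0.05 was 906 and 646 in those settings. Mean spread was 1.768 ± 0.111 in IRI and 1.85 ± 0.083 in IPC (SD, n = 10 each), beside 1.908 in IPO and 1.857 in IPC+IPO, and its part in the interaction was not tested beyond these settings.

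**Figure D5:**
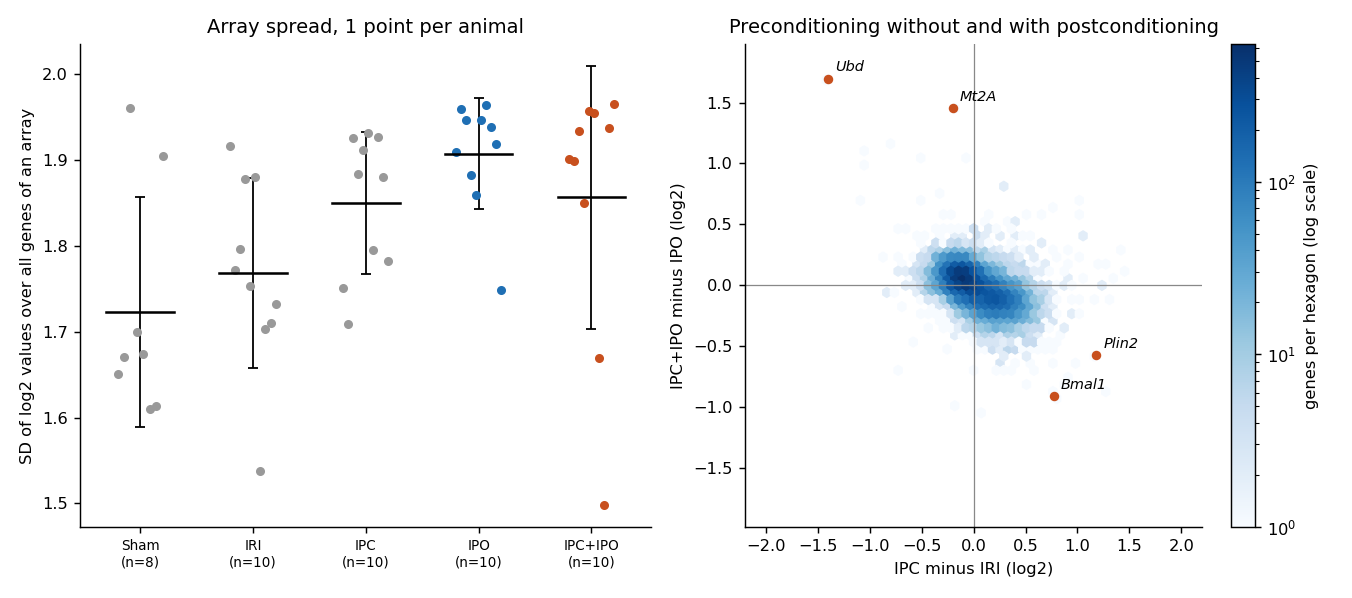
Left, spread of log2 values (SD over all genes) of every array by group, with mean (bar) and SD (whiskers); IPC+IPO animals 38 (1.5) and 37 (1.67) are the lowest of their group. Right, each gene's difference made by preconditioning without (IPC minus IRI, x axis) and with postconditioning (IPC+IPO minus IPO, y axis), both log2, as gene counts per hexagon on a log colour scale; the cloud slopes down (r = -0.52).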

How the data were processed

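Liver biopsies of 48 rats were measured on Affymetrix arrays, 1 per animal, with group and animal number taken from the sample titles. What the authors deposited is a log2 value for each probe set, made with RMA in Affymetrix Expression Console per the submitters' processing notes; versions are not given in the sources used here. RMA normalizes probe quantiles across arrays, so a shift of the whole array is removed. All 29215 probe sets had a value on every array. The platform annotation gave a single symbol to 15310 probe sets, several to 323 and none to 13582. For each of 14506 genes the probe set of highest mean was used, without a filter on dim genes.

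All 5 groups entered 1 fit with limma 3.58.1 in R 4.3.3 (43 residual degrees of freedom, two-sided, no covariate), with Benjamini-Hochberg adjustment over all genes and a threshold of 0.05. Array spread and correlations were tested with 100000 or all permutations in Python 3.11.15 (scipy 1.17.1). The steps were tested on simulated data. Alternatives covered variance models, array weights, probe set choice, scaling, a covariate for array spread, omission of the 13 arrays whose spread was below the lowest IPO array (2 of IPC+IPO, animals 37 and 38), and omission of each array in turn; the mean of all probe sets of a gene was added after the data were seen. The genes, lists and members were chosen with earlier results of these data known. Named genes are the 20 of smallest p and the 3 members of smallest p of each list, of which the text gives a selection; 1 olfactory receptor locus was skipped. The clock genes outside that rule, and Hebp2, Alb, Mt3, Mtf1, Slc30a1, Slc30a2, Igfbp1 and Scd, were picked once their values had been seen. Promoters came from a RefSeq table of build GRCr8 and were matched by symbol. No batch is named in the labels.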

Additional observations from a re-analysis of the deposited data

Results flagged for a closer look

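In 24 of 168 groups of values tested (14.3%), 1 animal lay apart from the other 9 of its group, with a gap over the range above the 95% critical value of Dixon's ratio (0.466 for 10 samples). Chance alone gives about 1 in 20 such groups, and genes measured on the same array are not independent. Of the 24, 10 were IPO animal 30 and 6 were IPC+IPO animal 38.

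IPO animal 30 had the lowest array spread of its group (1.75) and the highest values of the clock genes Per1 (7.02), Per2 (6.52), Per3 (5.44) and Usp2 (6.55). It also had the lowest Tubb2a (7.01), Apol9a (8.21), Hebp2 (4.83), Cth (11.1) and Vsig4 (5.9). IPC+IPO animal 38, the array of lowest spread, had the lowest Abcg3 (6.07) and Alb (12.81) and the highest Cxcr2 (4.96), Fpr1 (6.03), Cd3g (4.98) and Mt3 (6.23). IPO animal 22 was highest for Ubd (7.45), Lcn2 (7.09), Cxcr2 (4.1) and Nfil3 (9.46). Single values were IPO animal 24 for Clock (6.49, lowest), IPO animal 25 for Hspa5 (10.66, lowest), IPC+IPO animal 37 for Nfil3 (6.85, lowest) and IPC+IPO animal 39 for Per1 (7.22, highest).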

How the results depend on the processing

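No gene was called in IPC+IPO against IPO in any other setting tried, with 2 exceptions: array weights called 12 genes and the fit without IPC+IPO animal 34 called 2, so the count ran from 0 to 2 over the 20 fits that left out 1 array. The interaction gave 0 calls except with array weights, which called 189. The cause of the higher counts with array weights was not tested. Of 83 named genes, 9 passed the threshold in some setting, and Mt2A differed by 1.35 to 1.74 with an adjusted p of 0.000108 to 0.925. The 3 genes whose direction changed had differences near 0. Cry2 was at 0.14 with array weights, 0.01 after renewed quantile normalization, 0.08 with spread as a covariate and 0.13 without the arrays of low spread, and from -0.11 to 0.07 with 1 array left out. Mtf1 was at -0.03 with array weights and from -0.04 to 0.05 with 1 array left out. Slc30a1 was at 0.07 after renewed quantile normalization, 0.05 with spread as a covariate and 0.05 without the arrays of low spread, and from -0.08 to 0.03 with 1 array left out. Array spread differed by -0.043 over all probe sets and by -0.13 as an interquartile range. No paired analysis was possible because IPC+IPO and IPO have no animal number in common. Differences under about 0.24 on the log2 scale, the median half-width of the 95% interval, could not be resolved for a typical gene.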

Other observations

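Lists not described in the comparisons held few members at an unadjusted p under 0.05. The 10 genes of MHC class II, which present antigen on macrophages and dendritic cells, had a median difference of -0.043 (0.007 without the arrays of low spread), with 7 lower and none at that p. The 33 subunits of respiratory complex I had a median of 0.009 (0.068 with spread as a covariate), with 19 higher. The 21 genes of the integrated stress response, which slows translation and raises amino acid synthesis, had a median of 0.006 (0.058 with that covariate), with Cth alone at that p. Drug and bile acid metabolism had 16 of 35 genes higher and a median of -0.022 (0.059 with spread as a covariate). Stellate cell markers (17 genes, median -0.012, or 0.012 with spread as a covariate) and sinusoidal endothelial markers (12 genes, median -0.001, or 0.063 with that covariate) were split almost evenly, and 9 of 11 erythroid and platelet markers were higher (median 0.074, or 0.055 with that covariate).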
